A study of Mus musculus with 24 samples.

Results

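The neurotrophic and growth factor genes examined here were 10 genes chosen by name, Bdnf, Cntf, Ptn, Mdk, Fgf1, Igf1, Vgf, Nrn1, Ntrk2 and Ntrk3, out of 33000 genes in the count table. All 10 were in the table and all 10 passed the filter on low counts when the libraries of each mouse were summed. They were measured in frontal cortex RNA of 3 wild-type (WT) mice and 3 mice homozygous for GFAP-IL6, a transgene in which the promoter of the astrocyte gene Gfap drives the cytokine Il6. All 6 mice were C57BL/6 and 3 months old. Each mouse gave 4 libraries by 3'Pool-seq, an RNA-seq method that reads the 3' ends of polyadenylated transcripts, and the tagmentation of these libraries used either 2 ng or 1 ng of cDNA, once in set A and once in set B. Tagmentation is the step in which a transposase cuts the cDNA and adds adapters. The labels do not say what set A and set B are.

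Neurotrophins such as brain-derived neurotrophic factor (BDNF) are secreted proteins that bind tyrosine kinase receptors on neurons, TrkB for BDNF and TrkC for neurotrophin-3, and support survival, dendrite growth and synaptic plasticity. Pleiotrophin and midkine are a pair of related heparin-binding factors, FGF1 and IGF-1 signal through their own receptor tyrosine kinases, and CNTF signals through a receptor complex that contains gp130, the subunit that IL-6 also uses. BDNF, VGF and neuritin (Nrn1) are induced by neuronal activity and by neurotrophins in cortical neurons. Astrocytes express Ntrk2 mainly as a truncated form of TrkB that lacks the kinase domain.

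The libraries held 1524165 to 12256374 counts, and the sums per mouse ran from 7852743 in WT mouse 3 to 37582644 in GFAP-IL6 mouse 3. Levels are given as CPM, counts relative to the library total, after TMM scaling, which corrects library size for differences in composition. Genotypes were compared with edgeR's quasi-likelihood test on the sums, with the mouse as the replicate, and a gene was called at a Benjamini-Hochberg adjusted p under 0.05. Il6 went from 0.261, 0.166 and 0 CPM in the WT mice to 3.15, 1.59 and 4.23 CPM in the GFAP-IL6 mice (log2 fold change 4.06, SE 0.56, edgeR adjusted p = 0.000396), in the direction of the labels. Of 14621 genes tested, 275 (1.88%) were called, 267 higher and 8 lower in GFAP-IL6 mice. Neuronal, excitatory, inhibitory, astrocyte and oligodendrocyte markers were detected in all 6 mice. Choroid plexus markers summed to 109 to 4064 CPM in WT mice and 82.2 to 753 CPM in GFAP-IL6 mice, with the highest value in WT mouse 3. Striatal markers summed to 144 to 251 CPM in WT mice and 128 to 171 CPM in GFAP-IL6 mice, highest in WT mouse 2.

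None of the 10 genes was called between genotypes, against 1.88% of all genes tested. With edgeR 1 of the 10, Nrn1, had an unadjusted p under 0.05, as did 1290 genes in all. DESeq2, run on all 20629 genes with any count and so on a wider base, also called 0 of the 10, beside 285 genes in all. It gave 1 of the 10 an unadjusted p under 0.05, beside 1106 genes in all. The log2 fold change, GFAP-IL6 over WT, was positive for 4 genes and negative for 6. The median over the 10 was -0.02, beside -0.01 over all genes tested, and the median absolute log2 fold change was 0.14, beside 0.11 over all genes. In all 10 genes the values of the 3 GFAP-IL6 mice overlapped those of the 3 WT mice. No share over all genes tested is given beside this count, so it does not set the 10 apart from other genes.

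**Figure D1:**
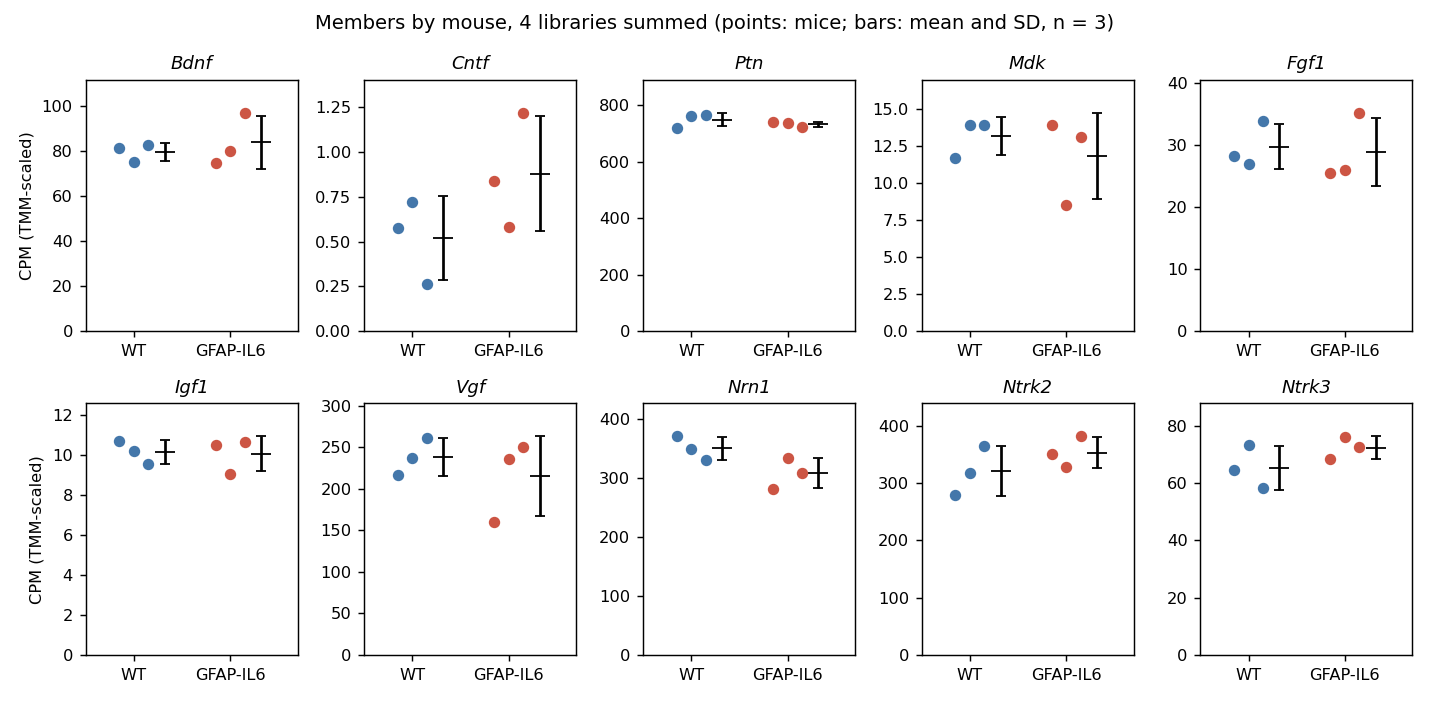
Level of each of the 10 genes in each mouse in CPM after TMM scaling, with 4 libraries summed per mouse. Points are mice, and the bars give the mean and SD of 3 mice. WT and GFAP-IL6 points overlap in every panel, and GFAP-IL6 mouse 1 is the lowest point for Vgf at 160 CPM.

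Among the ligands, Bdnf, which encodes the main ligand of TrkB, measured 81.4, 74.9 and 82.6 CPM in WT mice 1, 2 and 3 and 74.6, 80.1 and 97.1 CPM in GFAP-IL6 mice 1, 2 and 3. GFAP-IL6 mice held both the lowest and the highest level. The means were 79.6 ± 4.13 CPM (SD, n = 3) and 83.9 ± 11.7 CPM (SD, n = 3), a log2 fold change of 0.08 (SE 0.10, edgeR adjusted p = 0.907) with a 95% interval of 0.913-fold to 1.23-fold. Without GFAP-IL6 mouse 3, the mouse with the highest level, the log2 fold change of Bdnf was -0.04. Bdnf lies on chromosome 2 at 109674700 to 109727007 on the plus strand (mm10). All 11 of its transcripts in GENCODE vM21 belong to 1 gene record, and 3' counting does not separate its promoters. An antisense gene, Gm45346, overlaps it, and reads of the pair cannot be told apart if counting ignored strand, which the methods do not give.

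Cntf, the gene of ciliary neurotrophic factor, was at the limit of detection. It had 11, 13 and 2 counts in WT mice and 8, 12 and 47 counts in GFAP-IL6 mice, or 0.573, 0.720 and 0.261 CPM against 0.840, 0.578 and 1.22 CPM. Of the 24 libraries, 14 held 3 counts or fewer and 4 held none. The log2 fold change of 0.69 (SE 0.50, edgeR adjusted p = 0.792) had the widest interval of the 10, from 0.776-fold to 3.35-fold, so a difference of this size was not detectable at this depth. Without GFAP-IL6 mouse 3, which held most of the counts in its group, it was 0.29. Cntf also overlaps Zfp91 on the same strand (chromosome 19, 12763660 to 12765632, minus strand). Its few counts may depend on how reads in the overlap were assigned, which the methods do not give.

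Ptn, the gene of pleiotrophin, varied least between mice. Its levels were 721, 762 and 765 CPM in WT mice and 739, 736 and 723 CPM in GFAP-IL6 mice, and the GFAP-IL6 values all lay inside the WT range. The means were 749.5 ± 24.7 and 732.5 ± 8.62 CPM (SD, n = 3 each), with a log2 fold change of -0.03 (SE 0.08, edgeR adjusted p = 0.956) and an interval of 0.870-fold to 1.10-fold. Mdk, the gene of the related factor midkine, measured 11.7, 14.0 and 14.0 CPM in WT mice and 14.0, 8.53 and 13.1 CPM in GFAP-IL6 mice. GFAP-IL6 mouse 2 was the only mouse under 10 CPM. The log2 fold change of Mdk was -0.16 (SE 0.18, edgeR adjusted p = 0.894) with that mouse and 0.04 without it.

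Fgf1, the gene of acidic fibroblast growth factor, measured 28.3, 27.0 and 33.8 CPM in WT mice and 25.5, 25.9 and 35.2 CPM in GFAP-IL6 mice. Mouse 3 of each genotype was the highest of its group, and the log2 fold change was -0.01 (SE 0.14, edgeR adjusted p = 0.996). Igf1, the gene of insulin-like growth factor 1, stood at 10.7, 10.2 and 9.52 CPM in WT mice and 10.5, 9.06 and 10.6 CPM in GFAP-IL6 mice. Its log2 fold change was -0.02 (SE 0.15, edgeR adjusted p = 0.991) with an interval of 0.792-fold to 1.22-fold. Igf1 is known to be made by microglia as well as by neurons. In the same libraries 6 of 7 microglial markers were called higher in GFAP-IL6 mice, with summed levels of 370 to 417 CPM in WT mice and 599 to 775 CPM in GFAP-IL6 mice, and P2ry12 was not called. In bulk tissue a change in the number of cells of a type and a change in RNA per cell cannot be told apart. Fgf1 overlaps Arhgap26 on the opposite strand, and Igf1 overlaps Igf1os.

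Vgf, which encodes a secreted precursor of neuropeptides, measured 216, 237 and 262 CPM in WT mice and 160, 236 and 250 CPM in GFAP-IL6 mice. GFAP-IL6 mouse 1 was the lowest in each of the 4 sets, at 133 to 182 CPM where no other library was under 191 CPM. The log2 fold change of Vgf was -0.14 (SE 0.14, edgeR adjusted p = 0.878), and 0.02 without that mouse. Nrn1, which encodes neuritin, a GPI-anchored protein of neurites and synapses, measured 370, 349 and 331 CPM in WT mice and 282, 334 and 309 CPM in GFAP-IL6 mice. GFAP-IL6 mice 1 and 3 were below all WT mice and mouse 2 was just above the lowest WT mouse. The means were 349.8 ± 19.9 and 308 ± 26.2 CPM (SD, n = 3 each), and the log2 fold change of -0.19 (SE 0.09, interval 0.776-fold to 0.997-fold) had an unadjusted edgeR p of 0.0449 and an adjusted p of 0.552. The neuronal markers Snap25, Syt1, Rbfox3, Tubb3, Nefl and Stmn2 gave 0 of 6 called, with a summed level of 6631 to 7348 CPM in WT mice and 6213 to 6945 CPM in GFAP-IL6 mice. Nrn1 overlaps Fars2 on the opposite strand (chromosome 13, 36725361 to 36735131, minus strand).

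The receptor genes Ntrk2 (TrkB) and Ntrk3 (TrkC) both had positive differences that did not pass. Ntrk2 measured 278, 318 and 365 CPM in WT mice and 351, 327 and 382 CPM in GFAP-IL6 mice, with 1 of 3 GFAP-IL6 mice above all WT mice. Its log2 fold change was 0.14 (SE 0.10, edgeR adjusted p = 0.784), with an interval of 0.952-fold to 1.28-fold. It was 0.046 without WT mouse 1, 0.080 without GFAP-IL6 mouse 3 and 0.25 without WT mouse 3. Ntrk3 measured 64.4, 73.2 and 58.2 CPM in WT mice and 68.2, 76.1 and 72.7 CPM in GFAP-IL6 mice, and 2 of the 3 GFAP-IL6 values lay inside the WT range. Its log2 fold change was 0.14 (SE 0.10, edgeR adjusted p = 0.764), with an interval of 0.958-fold to 1.27-fold, and it was 0.080 without WT mouse 3 and 0.23 without WT mouse 2. Ntrk2 has 9 and Ntrk3 has 20 distinct transcript 3' ends in GENCODE vM21, which include full-length and truncated receptors. The deposited counts add them into 1 number per gene, so receptor forms were not separated. Ntrk2 overlaps 1 gene on its own strand and 3 on the opposite strand, and Ntrk3 overlaps 2 on its own strand and 2 on the opposite strand. Their counts may depend on how reads in these overlaps were assigned, which the methods do not give. Astrocyte markers gave 0 of 6 called, with summed levels of 2867 to 2951 CPM in WT mice and 3169 to 3361 CPM in GFAP-IL6 mice. Aldoc made up much of these sums, with means of 1671 CPM in WT and 1887 CPM in GFAP-IL6 mice. Of the 6 markers, 5 had positive log2 fold changes and 1, Aldh1l1, a negative one (-0.096). Gfap, the astrocyte gene whose promoter the transgene carries, was called (log2 fold change 2.44, edgeR adjusted p = 0.0017).

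For the 9 genes other than Cntf the 95% intervals reached no lower than 0.690-fold, for Mdk, and no higher than 1.28-fold, for Ntrk2. The genotype comparison was repeated in each of the 4 sets of 6 libraries, which come from the same mice and are not independent. Of the 10 genes 9 could be tested there and Cntf could not. None of the 9 was called in any set, against 1.08% and 1.13% of genes tested in set A with 2 ng and 1 ng and 1.2% and 1.06% in set B with 2 ng and 1 ng. With edgeR, 1, 0, 1 and 2 of the 9 had an unadjusted p under 0.05 in these sets, in that order, beside 941, 912, 827 and 899 genes in all. DESeq2 called none of the 9 either, beside 77, 111, 88 and 115 genes in all. Bdnf, Ntrk2 and Ntrk3 had positive log2 fold changes in 4 of 4 sets, at 0.03 to 0.17, 0.10 to 0.17 and 0.01 to 0.28. Nrn1 (-0.26 to -0.13), Mdk (-0.40 to -0.04) and Vgf (-0.17 to -0.06) had negative ones in 4 of 4 sets. Ptn and Fgf1 stayed within 0.18 of 0 with both signs, and Igf1 ranged from -0.49 to 0.52.

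**Figure D2:**
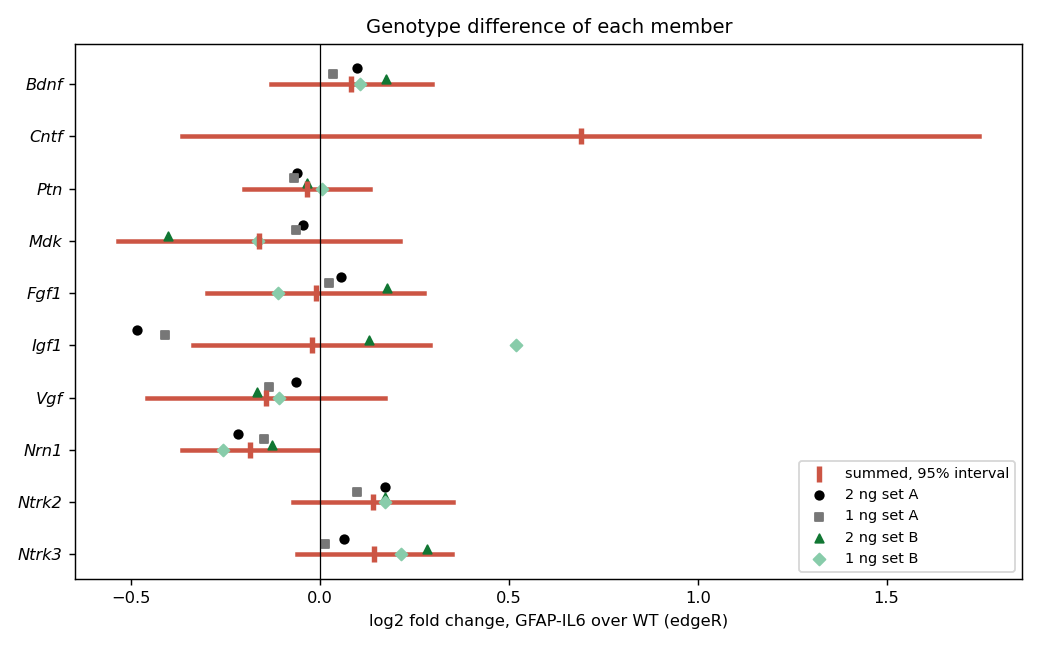
Log2 fold change of each of the 10 genes, GFAP-IL6 over WT, from edgeR. Red bars give the summed libraries with their 95% interval (3 mice against 3), and the small symbols give the 4 sets of 6 libraries. Every bar but that of Nrn1 crosses 0, and the set values of Igf1 lie between -0.49 and 0.52.

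The genes around these factors were examined by lists of ligands, receptors and processing enzymes, 83 genes in all, of which 63 could be tested. Of these, 3 were called higher and 0 lower. The first 2 belong to the family of cytokines that share gp130 with CNTF, where 2 of 8 tested genes passed. They were Il6 itself, which the transgene carries, and Osmr, the oncostatin M receptor subunit. All 8 tested genes, Il6 included, had positive log2 fold changes, with a median of 0.20 and a lowest value of 0.00043. Il6 held 5, 3 and 0 counts in WT mice and 30, 33 and 163 in GFAP-IL6 mice. It passed the filter on low counts only through the GFAP-IL6 mice, and the transgene fixed its direction. The call and sign of Il6 therefore add nothing to these counts. Over all genes tested 1.83% were called higher, and 7038 of 14621 had positive values. Osmr measured 0.938, 1.11 and 1.57 CPM in WT mice and 5.46, 3.76 and 5.42 CPM in GFAP-IL6 mice, a log2 fold change of 2.08 (SE 0.29, edgeR adjusted p = 0.000466). The groups did not overlap. The shared subunit gene Il6st (gp130) measured 18.4, 15.4 and 15.1 CPM against 22.8, 18.0 and 21.2 CPM, with a log2 fold change of 0.32 (edgeR adjusted p = 0.448), and Il11ra1, an interleukin 11 receptor gene, had 0.054 (0.95). The third called gene was Igfbp7, which encodes a secreted IGF-binding protein. It measured 7.14, 8.76 and 9.002 CPM in WT mice and 13.9, 14.3 and 13.3 CPM in GFAP-IL6 mice, a log2 fold change of 0.75 (SE 0.15, edgeR adjusted p = 0.00999). Its call was lost without WT mouse 1 (adjusted p = 0.0791) and without GFAP-IL6 mouse 2 (adjusted p = 0.0649). Igfbp7 is also expressed by vascular cells, and the endothelial marker Flt1 and the pericyte marker Rgs5 were called higher (log2 fold changes 0.70 and 0.52, edgeR adjusted p = 0.00442 and 0.0144). The endothelial markers summed to 49.4 to 55.7 CPM in WT mice and 59.1 to 81.2 CPM in GFAP-IL6 mice, with 1 of 5 called. Those of pericytes and smooth muscle summed to 65.8 to 93.1 CPM and 103 to 121 CPM, with 1 of 4 called. The part of these cells in the Igfbp7 result was not tested. The most abundant genes of that list, Igfbp4 and Igfbp6, had log2 fold changes of 0.0060 and -0.00041 (edgeR adjusted p = 0.997 and 1).

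The other lists gave no call with edgeR. Among other neurotrophins and their receptors 6 of 9 could be tested, with a median log2 fold change of -0.06. The co-receptors Sort1 and Sorcs3 had log2 fold changes of -0.07 and -0.08. In the GDNF family with Manf and Cdnf, 8 of 11 could be tested, at a median of -0.10. Gfra4, which encodes a GDNF family receptor, measured 93.1, 91.3 and 90.3 CPM in WT mice and 85.1, 82.2 and 78.5 CPM in GFAP-IL6 mice (log2 fold change -0.16, edgeR adjusted p = 0.601). Manf, which encodes a factor of the endoplasmic reticulum stress response, measured 75.9, 78.6 and 69.8 CPM in WT mice and 86.0, 89.9 and 97.2 CPM in GFAP-IL6 mice (log2 fold change 0.28, edgeR adjusted p = 0.179, and 0.00462 with limma voom on the 24 libraries). The receptors of pleiotrophin and midkine, 10 of 11 tested, had a median of 0.08, and their most abundant members Ncl and Lrp1 had log2 fold changes of 0.09 and -0.01. FGF ligands and receptors, 10 of 16 tested, had a median of 0.05, with Fgfr3 at 0.04 and Fgf9 at -0.14. Granins and prohormone processing genes, which act on the same secretory pathway as Vgf and Bdnf, were tested for 10 of 10 and had a median of -0.05, with Cpe at 0.10 and Pcsk1n at -0.10. Nrn1l, the paralogue of Nrn1, measured 7.56, 6.37 and 9.92 CPM in WT mice and 5.77, 5.73 and 4.46 CPM in GFAP-IL6 mice, a log2 fold change of -0.57 (edgeR adjusted p = 0.307).

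**Figure D3:**
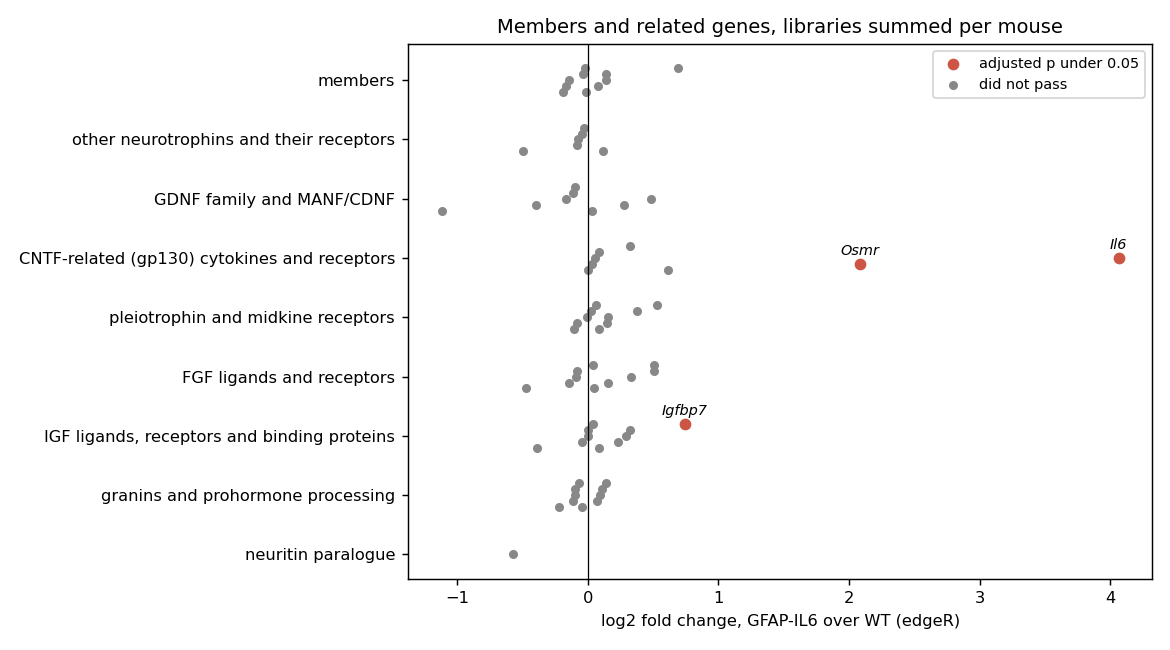
Log2 fold change, GFAP-IL6 over WT, of the 10 genes (row "members") and of the 63 tested genes in 8 related lists, from the libraries summed per mouse. Red points passed an adjusted p under 0.05 (Il6, Osmr and Igfbp7), and grey points did not.

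Library preparations of the same mice were compared next. Over those of the 10 genes that were tested, the median absolute log2 fold change was 0.15 between amounts of cDNA, 0.10 between sets and 0.14 between genotypes. Over all genes tested it was 0.13, 0.13 and 0.11, in the same order. Between sets the largest differences among the 10 were those of Nrn1 (0.62) and Ptn (0.56). Between amounts they were those of Nrn1 (0.52) and Vgf (-0.29, edgeR adjusted p = 0.168), followed by Ptn (0.21). With 2 ng of cDNA against 1 ng, sets A and B added together, 2 of the 9 genes tested were called and both were higher with 2 ng, against 5.7% of all genes called higher and 12.6% called in either direction. Nrn1 was 399 ± 35.4 CPM with 2 ng and 279 ± 27.7 CPM with 1 ng (SD, n = 6 mice), a log2 fold change of 0.52 (SE 0.06, edgeR adjusted p = 2.51e-07). The difference was 0.48 to 0.55 in each of 6 mice. Ptn was 805 ± 23.1 CPM with 2 ng and 698 ± 22.01 CPM with 1 ng, a log2 fold change of 0.21 (SE 0.05, edgeR adjusted p = 0.00374), higher in 6 of 6 mice. With the mouse as a block, since the same 6 mice are on both sides, 5 of 10 were called against 31.3% of all genes. The 3 further genes were Ntrk2 (-0.07, edgeR adjusted p = 0.00564), Ntrk3 (-0.17, 0.000664) and Vgf (-0.29, 7.46e-31), each lower with 2 ng in 6 of 6 mice.

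Set A differed from set B in the same 2 genes. Set A was called higher for 2 of 9, against 5.23% of all genes called higher and 7.44% in either direction. Nrn1 had a log2 fold change of 0.62 (SE 0.06, edgeR adjusted p = 7.39e-08) and Ptn of 0.56 (SE 0.05, edgeR adjusted p = 4.76e-08), each in 6 of 6 mice. With the mouse as a block 4 of 10 were called, against 21.8% of all genes, adding Bdnf (0.27, edgeR adjusted p = 1.76e-06) and Ntrk2 (-0.09, 0.0027). The study's protocol pools samples after reverse transcription, so the 6 libraries of 1 amount and set may have shared a single tagmentation reaction. The p-values of these contrasts count mice, not reactions, and say nothing of how far another reaction would differ.

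**Figure D4:**
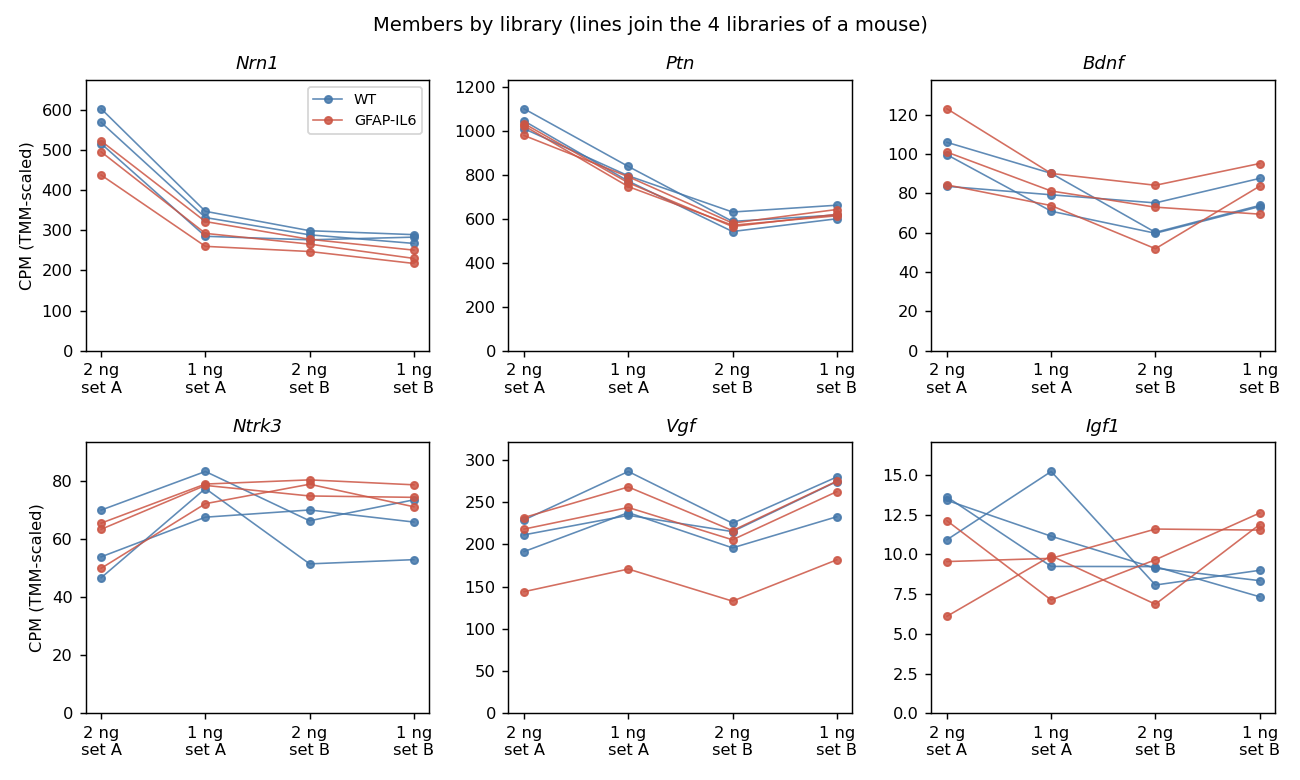
Level of 6 of the genes in each of the 24 libraries in CPM after TMM scaling, by amount of cDNA and set. Each line joins the 4 libraries of a mouse, WT in blue and GFAP-IL6 in red. All 6 mice fall from 2 ng set A to 1 ng set A for Nrn1 and Ptn, and the lowest line for Vgf is GFAP-IL6 mouse 1.

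The 4 preparations taken one by one showed that these contrasts were uneven. In set A Nrn1 averaged 524 ± 57.6 CPM with 2 ng and 306.5 ± 32.7 CPM with 1 ng, and in set B 276 ± 18.1 CPM and 256 ± 28.8 CPM (SD, n = 6 mice). The 2 ng set A libraries of all 6 mice, at 438 to 603 CPM, were above every other library, the highest of which had 347 CPM. Within set A the log2 fold change of Nrn1, 2 ng over 1 ng, was 0.76 (SE 0.06, edgeR adjusted p = 6.66e-11), and within set B it was 0.13 (SE 0.06, edgeR adjusted p = 0.246, or 0.000287 with the mouse as a block).

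Ptn followed the same order in set A and not in set B. It averaged 1033 ± 40.6 CPM in 2 ng set A and 785 ± 31.9 CPM in 1 ng set A, and 580 ± 29.7 CPM in 2 ng set B and 626 ± 22.3 CPM in 1 ng set B. With 2 ng it was higher in 6 of 6 mice in set A (log2 fold change 0.39, edgeR adjusted p = 1e-06) and lower in 6 of 6 mice in set B (-0.10, edgeR adjusted p = 0.387, or 0.000126 with the mouse as a block). Bdnf also had opposite signs, at 0.31 in set A (edgeR adjusted p = 0.00997, higher in 6 of 6 mice) and -0.23 in set B (edgeR adjusted p = 0.215, or 0.00383 with the mouse as a block, lower in 5 of 6 mice). Ntrk3 was lower with 2 ng in 6 of 6 mice in set A (-0.37, edgeR adjusted p = 0.003) and had a log2 fold change of 0.03 in set B (edgeR adjusted p = 0.908). Vgf was lower with 2 ng in 6 of 6 mice in both sets (-0.24 and -0.32, edgeR adjusted p = 0.244 and 0.124, or 6.46e-09 and 1.83e-15 with the mouse as a block). In set A 4 of 9 genes were called without the block against 17.6% of all genes, and in set B 0 of 9 against 6.32%. With the block 6 of 9 were called in set A against 29.9% of all genes, and 4 of 9 in set B against 19.8%.

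Between sets at a fixed amount, the 2 ng libraries differed more than the 1 ng libraries. At 2 ng, Nrn1 (0.93, edgeR adjusted p = 7.25e-14), Ptn (0.84, edgeR adjusted p = 8.68e-14) and Bdnf (0.58, edgeR adjusted p = 4.59e-05) were called higher in set A, 3 of 9 genes against 20.6% of all genes. At 1 ng, Nrn1 (0.27, edgeR adjusted p = 0.0249) and Ptn (0.33, edgeR adjusted p = 0.000326) were called, 2 of 9 against 0.718% of all genes, and Bdnf was 0.02 (edgeR adjusted p = 0.978). With the block 5 of 9 were called at 2 ng against 31.7% of all genes, and 2 of 9 at 1 ng against 5.11%. The difference between the within-amount or within-set contrasts was not tested. Mdk and Fgf1 were called in none of these contrasts, with or without the block, and neither was Igf1.

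Within set A the mean log2 ratio of 2 ng to 1 ng was 0.81 in WT and 0.74 in GFAP-IL6 mice for Nrn1, and 0.39 and 0.40 for Ptn. Within set B it was 0.042 in WT and 0.18 in GFAP-IL6 mice for Nrn1, and -0.095 and -0.13 for Ptn. At 1 ng the mean log2 ratio of set A to set B was 0.20 and 0.32 for Nrn1, and 0.36 and 0.29 for Ptn. No gene of 13961 tested was called for a genotype difference that depended on the amount of cDNA (0%), with 87 genes and 0 of the 10 at an unadjusted edgeR p under 0.05 and 0 genes called by DESeq2. No gene of 14167 was called for a genotype difference that depended on the set (0%), with 231 genes and 1 of the 10, Igf1, at an unadjusted edgeR p under 0.05 and 0 genes called by DESeq2. These fits had no term for the mouse, so differences within a mouse were judged against the spread between mice. With the mouse as a block, 0 of 14261 genes were called for the amount and 0 of 14486 for the set. For Nrn1 the genotype difference was negative in all 4 preparations although its level ran from 256 to 524 CPM.

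Spread among the 4 libraries of a mouse and spread between mice therefore ranked differently from gene to gene. For Ptn the coefficient of variation was 3.29% between WT mice and 1.18% between GFAP-IL6 mice, beside a median of 27.8% among the 4 libraries of a mouse. For Nrn1 these values were 5.68%, 8.50% and 36.5%. For Vgf they were 9.51%, 22.4% and 11.9%, so GFAP-IL6 mice differed from each other more than the libraries of a mouse did. For Ntrk2 they were 13.5%, 7.72% and 5.72%, and counting alone would give 1.55% between WT mice. Igf1, with 14 to 143 counts in a library, had a spread of 5.75% between WT mice where counting alone would give 8.95%, so differences among WT mice were not detectable at this depth. These counting values cover counting error only, because PCR copies were not marked by molecular identifiers.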

How the data were processed

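Frontal cortex RNA of 3 WT and 3 GFAP-IL6 mice was measured in 24 3'Pool-seq libraries. The deposited values are raw read counts for each gene, made by the authors with no normalization. Per the study's methods, polyA stretches were trimmed, reads were aligned to mm10 with STAR (2.4 in the submitters' processing notes) and reads on GENCODE genes were counted with featureCounts. Those notes list hg19 as the build, while the gene identifiers and gene symbols are of mouse. The strand setting is not given in the sources used here. Positions and overlaps were taken from GENCODE vM21 on mm10, a later release than the one counted on.

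The 4 libraries of each mouse were summed. Genes that passed filterByExpr were tested over the whole table with edgeR 4.0.16 in R 4.3.3 (TMM, robust quasi-likelihood test, Benjamini-Hochberg), and called at an adjusted p under 0.05. Amount and set contrasts used 12 sums with genotype in the model, and a mouse block as an alternative because the labels tie each library to a mouse. Same-numbered WT and GFAP-IL6 mice share only a number (correlations of their deviations from the group means -0.0494, -0.0372 and -0.0608). The labels show the mice as separate samples and say nothing of litters. DESeq2 1.42.0, limma 3.58.1 with voom, DESeq2's size factors, other filters, left-out mice and thinning were alternatives. Scripts were tested on simulated data without a mouse effect, which cannot check contrasts that have the same mice on both sides. In the summed genotype comparison 75% of log2 fold changes of 1 were recovered, and 4.14% of calls were false. For the genotype difference between sets these values were 58% and 9.49%.

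The 10 genes and all lists were chosen with earlier results of these data known. Named genes were the 10, every called gene of a related list, its 2 genes not called with the highest mean CPM, called markers, some markers not called, and Il6 and Gfap. Igf1os, Zfp91 and other overlapping genes are named for position only. No sequences are shown, since the counts bear on none.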

Additional observations from a re-analysis of the deposited data

Results flagged for a closer look

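Igf1 was picked out because the ratio of set A to set B was above 1 in all 3 WT mice and below 1 in all 3 GFAP-IL6 mice. In WT mice the log2 ratio of set A to set B was 0.61, 0.51 and 0.48, and in GFAP-IL6 mice it was -0.29, -0.28 and -0.26. The genotype difference in set A minus that in set B was -0.82 (SE 0.26, 95% interval -1.35 to -0.29), with an unadjusted edgeR p of 0.00387 and an adjusted p of 1 over 14167 genes, and with the mouse as a replicate block it was -0.81 (edgeR adjusted p = 0.984). It did not pass the correction, and 231 genes had an unadjusted p under 0.05. In 1 ng set B the WT libraries held 7.34 to 9.0005 CPM and the GFAP-IL6 libraries 11.5 to 12.6 CPM, while in 2 ng set A they held 10.9 to 13.6 CPM and 6.11 to 12.1 CPM. Single libraries held 14 to 143 counts of Igf1.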

How the results depend on the processing

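No alternative called any of the 10 genes between genotypes, in the summed libraries or in any set where it could be tested, and the lowest adjusted p in the summed libraries was 0.0634, for Ntrk2 with limma voom. The number of all genes called, 275 with the libraries summed, was 443 without a filter on low counts, 528 with limma voom on the 24 libraries and 155 to 333 without 1 mouse, lowest without GFAP-IL6 mouse 3. In 2 ng set A it was 132, 77 with DESeq2, 85 with at least 10 counts in every sample and 62 to 150 without 1 mouse. In 1 ng set A it was 140 and 68 to 177 without 1 mouse. In 2 ng set B it was 147, 88 with DESeq2, 81 with at least 10 counts and 71 to 180 without 1 mouse. In 1 ng set B it was 138, 214 without a filter and 57 to 162 without 1 mouse. The cause of these shifts was not tested.

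Signs of small log2 fold changes turned when 1 mouse was left out, with ranges of -0.040 to 0.152 for Bdnf, -0.197 to 0.087 for Fgf1, -0.073 to 0.053 for Igf1, -0.269 to 0.036 for Mdk, -0.265 to 0.021 for Vgf, -0.109 to 0.216 for Fgfr3, -0.040 to 0.066 for Igfbp4, -0.065 to 0.091 for Igfbp6, -0.023 to 0.100 for Il11ra1, -0.075 to 0.125 for Lrp1 and -0.013 to 0.144 for Ncl. Limma voom also called Manf and Cpe (adjusted p = 0.00462 and 0.0204), and thinning lost the call of Igfbp7 (edgeR adjusted p = 0.0555). With limma voom Fgf1 was 0.065 and Lrp1 0.021. Igfbp4 was -0.00070 with DESeq2 and -0.032 after thinning every mouse to the smallest total. Igfbp6 was 0.0010 without a filter, 0.011 with same-numbered mice as a replicate block and 0.0058 with at least 10 counts, where Lrp1 was 0.0016. The block of same-numbered mice gave 240 calls over all genes and changed no call among the 10.

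The mouse as a replicate block raised the calls between 2 ng and 1 ng from 2 to 5 of these genes and from 1729 to 4461 genes, and between sets from 2 to 4 and from 1036 to 3157. The contrasts within sets and amounts were added after seeing the data. Between amounts, 4 of these genes were called within set A, 6 with the block (3933 genes), 0 within set B (793 genes) and 4 with the block. Between sets, 2577 genes were called within 2 ng and 4124 with the block (5 of these genes), and 92 within 1 ng and 684 with the block. Between amounts the sign turned within set A for Mdk (0.043, and 0.036 with the block), and within set B for Bdnf (-0.231, and -0.211 with the block), Ntrk2 (0.0043 and 0.017), Ntrk3 (0.030 and 0.024) and Ptn (-0.099 and -0.101). Between sets it turned within 2 ng for Vgf (0.049 with and without the block) and within 1 ng for Ntrk3 (0.131 and 0.117).

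Depth limits Cntf most, with 0 to 14 counts in a library, and Igf1 and Mdk next.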
